A study of Mus musculus with 80 samples.

Results

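Livers taken 12 h after carbon tetrachloride (CCl4) were compared with livers taken 4 h after it, in wild-type mice and in mice of the Adamts12-/- line, which lack a secreted metalloproteinase of the ADAMTS family. The comparison holds 19 of the 80 livers of the series: 10 of 4 h (5 of each genotype) and 9 of 12 h (5 wild type and 4 knockout). All 14560 genes of the deposited table were considered. Groups were set by genotype, treatment and time as titled, and 1 liver, knockout CCl4 12 h replicate 5, was left out because its measured expression stood with vehicle livers. The members were therefore chosen by measured values at that 1 point, and the wild-type livers, which were chosen by their titles alone, are given beside most counts of genes. All mice were C57BL/6J females of 8 weeks. A single intraperitoneal dose of 0.3 ml per kg CCl4, at 3% by volume in olive oil, was given to treated mice, and vehicle mice received olive oil only. Wild-type vehicle livers of 4 h and 12 h, 5 each, served as the background for change without CCl4. In these livers the time of day, feeding and the response to the oil injection cannot be told apart. Differences between the CCl4 and vehicle changes were taken from wild-type livers of both treatments. Mouse numbers in the labels differ between livers, and p-values measure the spread between these mice. How the mutant line was made is not given in the sources used here.

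CCl4 is a hepatotoxin that needs activation: cytochrome P450 enzymes of the hepatocytes around the central vein, chiefly Cyp2e1, turn it into radicals that attack membrane lipids and the endoplasmic reticulum. The first hours bring stress responses in the hit hepatocytes, such as chaperone, antioxidant and unfolded protein programmes, and the following day brings necrosis of the pericentral zone, entry of immune cells and preparation for cell division. Liver expression also follows the time of day, so a pair of times after an injection differs in the clock as well as in the injury.

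Recovered totals were 19.7 to 64.5 M reads per liver, with medians of 26.5 M at 4 h and 33.4 M at 12 h. Values are read counts divided by a size factor per library, called normalized counts below, and a value of 0 allows up to 3 reads, or 1.16 to 4.52 normalized counts. The first 2 principal components of the 40 livers of both times held 48.6% and 19.4% of the variance over 10234 genes. Apart from the components, each liver was given a position over the same genes on the log2 scale. It was 0 at the gene medians of wild-type vehicle livers of 12 h and 1 at those of wild-type CCl4 livers of 12 h. Knockout CCl4 12 h replicate 5, the liver left out, lay at -0.01. Its Sprr1a was 0 normalized counts, against 30657 to 94113 in the other knockout livers of 12 h, and its Glul was 39177, against 2230 to 5486. Knockout vehicle 12 h replicate 1 lay at 0.98 with a Sprr1a of 55860. Knockout vehicle livers entered only the principal components, these positions and the alternatives that hold both genotypes or all 16 groups. Among the members, wild-type CCl4 12 h replicate 2 lay at 0.72 and knockout CCl4 12 h replicate 1 at 0.62, between the other livers of 12 h (0.96 to 1.13) and those of 4 h (0.39 to 0.52). The targeted gene checks the genotype labels poorly here. Adamts12 read 9.60 to 45.2 normalized counts in wild-type and 3.20 to 13.5 in knockout livers of 4 h, and 11.4 to 18.9 and 4.80 to 25.4 at 12 h. These ranges overlap at both times, and which part of the gene the mutation removes is not given in the sources used here.

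**Figure D1:**
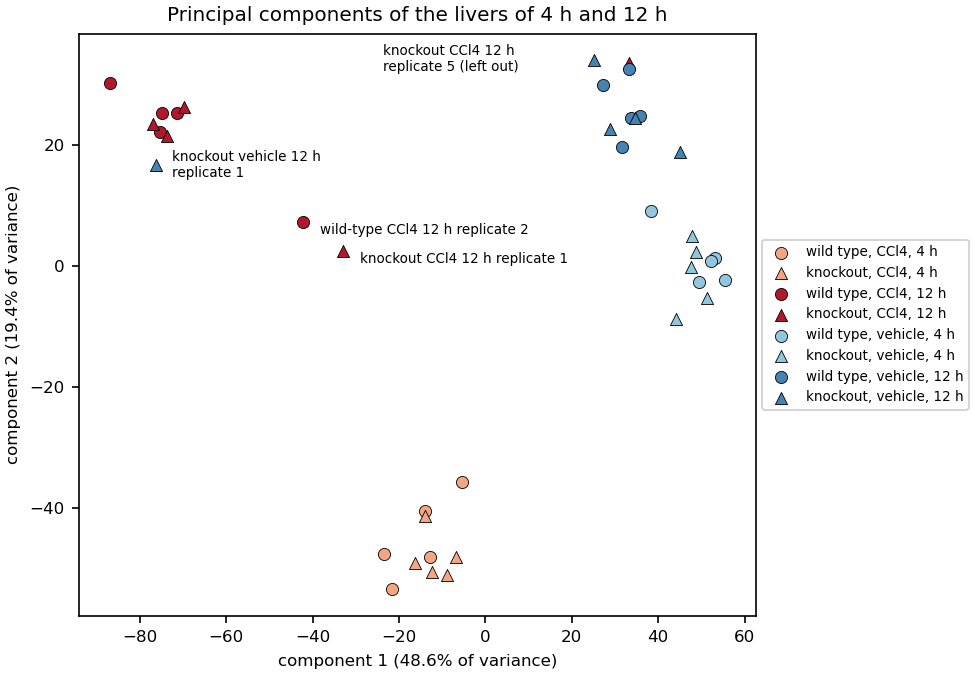
Principal components of the 40 livers of 4 h and 12 h, computed on log2 normalized counts, with the share of variance on each axis. Colours give treatment and time and shapes give genotype; the liver left out lies among vehicle livers of 12 h, and 2 CCl4 livers of 12 h lie between the other CCl4 livers of 12 h and those of 4 h.

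Between 4 h and 12 h genes of sterol, lipid, bile acid and drug metabolism fell. Of the serine and one-carbon genes 9 of 13 rose, and of the ribosome assembly genes 16 of 28, with 5 and 11 when the left-out liver was included. Markers of sinusoidal endothelial and Kupffer cells were lower at 12 h, and chaperones that were high at 4 h had fallen. With genotype as a covariate, limma called 9210 of 13982 tested genes at an adjusted p under 0.05: 4280 were higher at 12 h (30.6% of those tested) and 4930 were lower (35.3%). At an unadjusted p under 0.05 the number was 9602. In the wild type alone, fitted by itself, 3439 genes were higher (25.5%) and 3964 were lower (29.3%), of which 3308 and 3816 were among the calls above. With the left-out liver included, 3935 were higher (28.1%) and 4557 lower (32.5%). No call changed direction in either of these fits. Of the called genes 1290 rose and 1746 fell by at least 1 on the log2 scale, and 17 rose and 13 fell by at least 4. All 9 livers of 12 h lay above all 10 of 4 h for 1262 genes (9.03%) and below them for 1496 (10.7%). The median log2 change over all tested genes was -0.05. In a whole-liver sample, fewer cells of a type and less RNA per cell cannot be told apart, and this holds for every gene described here.

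The shares of rising and falling genes differed widely between lists of genes with a shared role. Cholesterol synthesis and lipogenesis had the lowest medians among the 33 pathway lists and serine and one-carbon metabolism the highest. In the lists below, "the wild type alone" gives the counts of its own fit, and the shares of all tested genes given above are the background for every count.

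**Figure D2:**
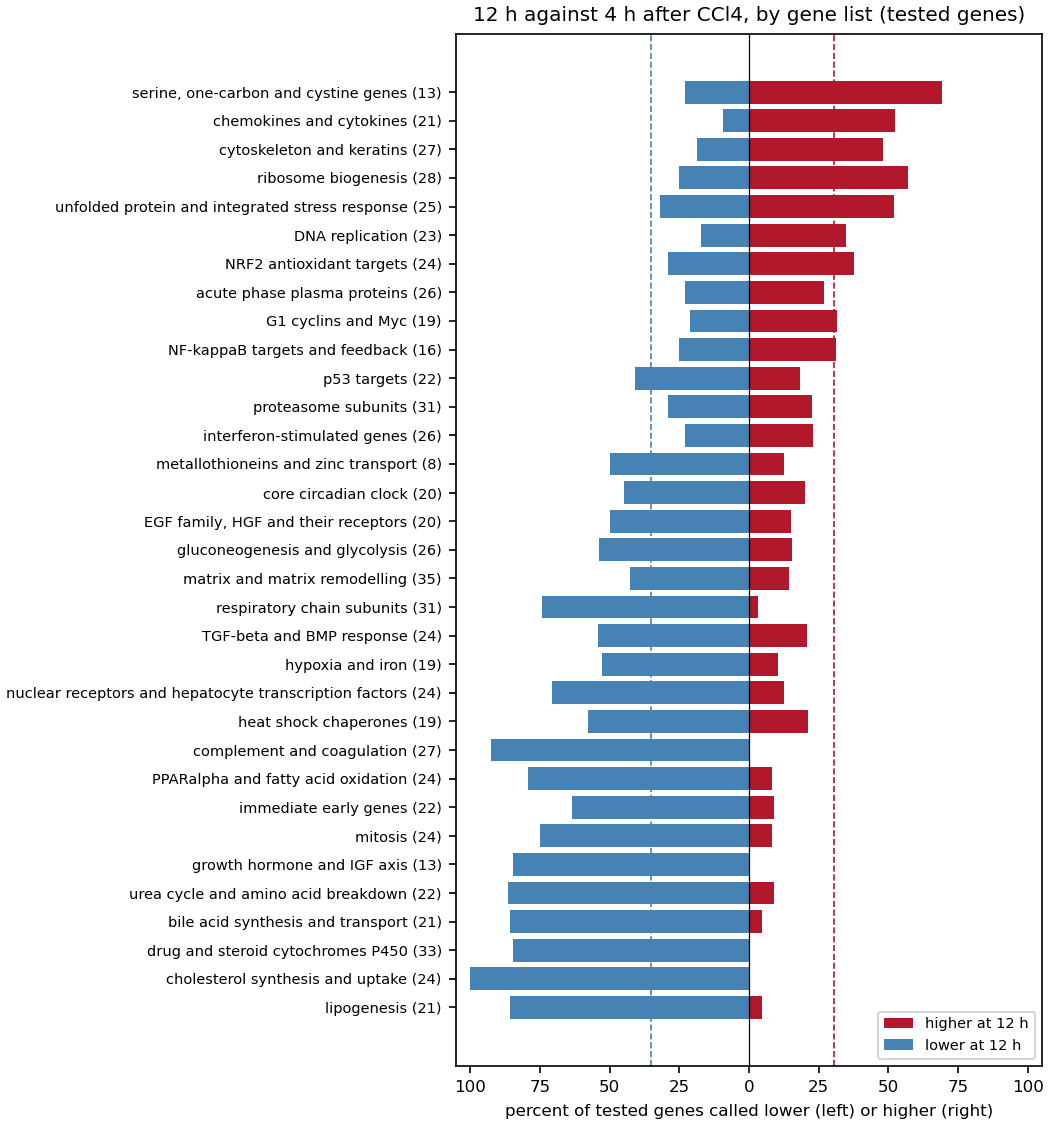
Percent of the tested genes of each pathway list called higher (right, red) or lower (left, blue) at 12 h than at 4 h after CCl4 in 19 livers, ordered by the median log2 change, with the number of tested genes in brackets. Dashed lines mark all tested genes, 30.6% higher and 35.3% lower; all 24 genes of cholesterol synthesis lie on the left.

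The 15 largest rises were taken among called genes with a mean of at least 100 normalized counts and no overlap between the times. Cpe (chr8:64592542-64693054 in GRCm38), which encodes carboxypeptidase E, a trimming enzyme of prohormones, read 1.50 to 139 (median 7.60) at 4 h and 185 to 1407 (median 978) at 12 h. The log2 change was 6.40 ± 0.53 (adjusted p = 2.85e-09). One knockout liver of 4 h, at 139, stood far above the other livers of that time and still below every liver of 12 h. The actin cross-linker Flnc went from 2.80 to 18.0 (median 7.10) to 190 to 1065 (median 279), a log2 change of 5.67 ± 0.33. Abcc4 (chr14:118482692-118706219), an efflux pump for bile acids and drug conjugates on the blood side of the hepatocyte, was the gene with the smallest adjusted p, 9.45e-17. It read 102 to 208 (median 142) at 4 h and 3286 to 5160 (median 4588) at 12 h. The groups were far apart, with a log2 change of 4.86 ± 0.13, and wild-type vehicle livers stayed at medians of 110 at 4 h and 115 at 12 h. The matricellular gene Ccn4 read 27.5 to 65.2 (median 44.9) at 4 h and 635 to 2166 (median 1723) at 12 h, a log2 change of 5.16 ± 0.19. Foxred2 (4.77 ± 0.17) and Kdelr3 (4.10 ± 0.23), which serve protein disposal from and retrieval to the endoplasmic reticulum, rose as well. The other 9 named rises, Aldh1l2, Phgdh, Rrad, Rin1, Fam171b, Hid1, Gprc5a, Pycr1 and Fads3, had log2 changes of 4.13 to 5.22.

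The 15 largest falls were taken in the same way and ran from -5.48 to -3.81 on the log2 scale. Rgs16 (chr1:153740349-153745468), a brake on G protein signalling, read 1412 to 22027 (median 3647) at 4 h and 46.1 to 393 (median 86.5) at 12 h, a log2 change of -5.48 ± 0.42 (adjusted p = 7.59e-10). It also fell in wild-type vehicle livers, with medians of 4170 at 4 h and 147 at 12 h. The nicotinic receptor subunit Chrna4 (-4.81 ± 0.40) and the uridine-cleaving enzyme Upp2 (-4.23 ± 0.40) shared this fall in vehicle livers, where their log2 changes were -4.32 ± 0.87 and -4.70 ± 0.58. Ackr2 (chr9:121898355-121911074), a scavenger receptor that removes inflammatory chemokines, behaved otherwise. It read 1240 to 2435 (median 1971) at 4 h and 27.1 to 319 (median 66.8) at 12 h after CCl4, a log2 change of -4.53 ± 0.29, and its vehicle medians were 61.1 at 4 h and 109 at 12 h. Aox3, an aldehyde oxidase, read 5805 to 8590 (median 6702) at 4 h and 169 to 5164 (median 269) at 12 h. Its highest values of 12 h, 5164 and 2345, came from the 2 livers that lay nearest to those of 4 h. Hectd2os, Cyp3a63-ps, Asic5, Abca8a and Sult3a1 fell by 3.82 to 5.13 on the log2 scale. The strand used in counting is not given in the sources used here, so reads of Hectd2os cannot be told from its antisense partner, and Cyp3a63-ps may share reads with other Cyp3a genes. Stard4, Idi1, Thrsp, Fgf21 and Hspa1a are described with their lists.

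**Figure D3:**
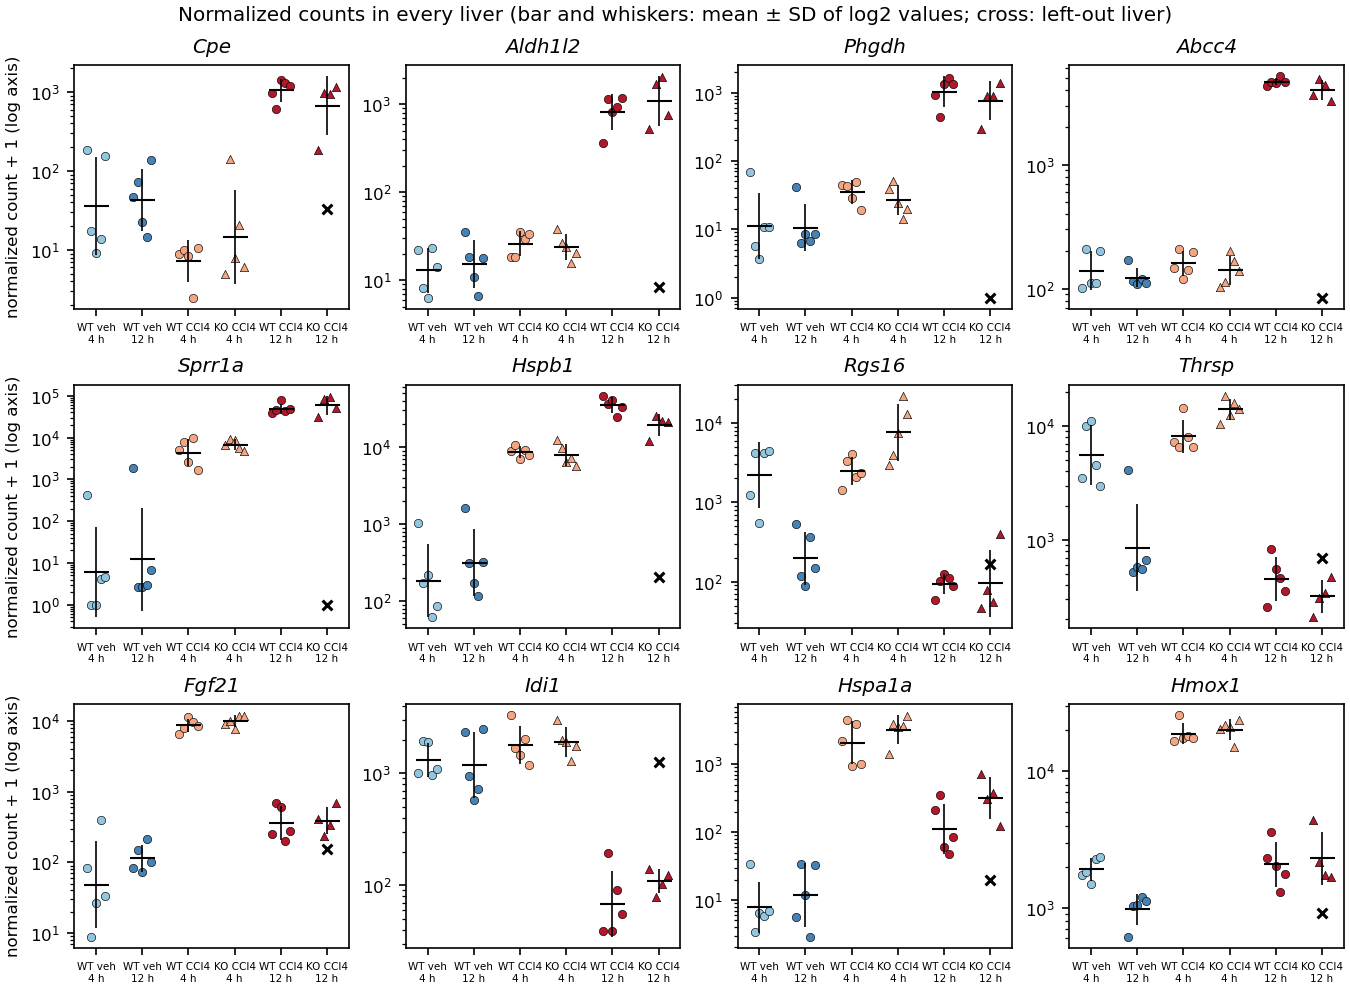
Normalized counts plus 1 on a log axis for 12 genes, 1 point per liver, in wild-type vehicle and in wild-type and knockout CCl4 livers of 4 h and 12 h, with the mean and SD of the log2 values as bar and whiskers. Crosses mark the knockout liver of 12 h that was left out; Abcc4 and Phgdh are far above the 4 h and vehicle livers at 12 h, whereas Fgf21 and Hspa1a are high at 4 h and low at 12 h.

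Immediate early genes, the first transcripts a stimulus induces, were mostly lower at 12 h: 2 of 22 rose and 14 fell (median log2 change -0.88), and 3 rose and 13 fell in the wild type alone. Zfp36, which speeds the decay of cytokine mRNAs, read 8320 to 11871 (median 10203) at 4 h and 1037 to 4421 (median 1360) at 12 h, a log2 change of -2.59 ± 0.22 (adjusted p = 3.16e-09). Maff and Btg2 fell without overlap between the times (-2.70 ± 0.21 and -2.56 ± 0.26). Maff also fell in wild-type vehicle livers (-2.13 ± 0.39), and its change in wild-type CCl4 livers differed from that by -0.03 ± 0.55 (adjusted p = 0.974). The 2 rises were Klf4 and Myc. Klf4, a transcription factor of epithelial differentiation, read 82.4 to 180 (median 128) at 4 h and 460 to 1237 (median 806) at 12 h, a log2 change of 2.56 ± 0.18. Myc, a driver of growth, read 1365 to 3402 (median 1938) at 4 h and 3979 to 10907 (median 6722) at 12 h, a change of 1.72 ± 0.19. Including the left-out liver, the change of Myc was 1.09 (adjusted p = 0.118), and in the wild type alone it was 2.18 (adjusted p = 5.29e-06).

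Heat shock chaperones, which hold and refold damaged proteins, were high at 4 h and lower at 12 h: 4 of 19 rose and 11 fell (median log2 change -0.84), and 4 rose and 11 fell in the wild type alone. Including the left-out liver, 1 rose and 11 fell. Hspa1a, the inducible Hsp70, read 956 to 5101 (median 3599) at 4 h and 46.3 to 715 (median 209) at 12 h. The log2 change was -3.81 ± 0.41 (adjusted p = 9.97e-08). Its near-identical copy Hspa1b read 13967 to 42142 (median 28877) at 4 h and 609 to 5146 (median 1444) at 12 h, a change of -3.57 ± 0.32, and reads may be shared between these genes. The Hsp40 partner Dnajb1 read 13496 to 28097 (median 20951) at 4 h and 2404 to 6041 (median 3662) at 12 h, a change of -2.25 ± 0.16. Hspb8, Dnaja1 and the co-chaperone Bag3 fell by 1.55 to 1.91 without overlap. In wild-type vehicle livers the medians of Hspa1a were 5.40 at 4 h and 10.8 at 12 h, and 0 of the list rose and 1 fell. The small chaperone Hspb1 went the other way and read 5670 to 12374 (median 8400) at 4 h and 11894 to 46555 (median 25799) at 12 h, a change of 1.69 ± 0.18. That change was 2.04 (adjusted p = 3.31e-06) in the wild type alone and 1.01 (adjusted p = 0.176) with the left-out liver.

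Promoters of several lists were searched for the motifs of their regulators, and those of 3 stress lists are given first. RefSeq promoters (GRCm38.p6, 250 bases before to 50 after the start) were matched by symbol, and both strands were searched. The heat shock element, spelled GAANNTTC, was in 9 of the 14 chaperone genes with a promoter (64.3%), against 5.73% of the 10906 genes of the table with a promoter, counted at their first start. Over all 32851 promoters the shares were 7.86% for this motif, 3.97% and 12.4% for the next 2. Of these 9 genes 7 fell and 2 rose. The ATF4 element, spelled TGATGNAA, was in 6 of 22 genes of the unfolded protein and integrated stress response (27.3%, against 2.31% of genes), of which 3 rose and 2 fell. The antioxidant response element, spelled TGACNNNGC, was in 5 of 21 NRF2 targets (23.8%, against 14.6% of genes), of which 1 rose and 2 fell. The cyclic AMP response element, spelled TGACGTCA, was in 2 of 17 immediate early genes (11.8%, against 3.11% of genes). A match describes these letters only. Sequences are given from 200 bases before to 10 after the start, 5′ to 3′ along the gene, with the match in capitals. For each motif of the 3 stress lists the matched genes with the largest fall and the largest rise are shown. They are Hspa1a at chr17:34972147-34972356 (- strand) and Hspb1 at chr5:135887719-135887928 (+ strand) for the heat shock element, Fgf21 at chr7:45615481-45615690 (- strand) and Nupr1 at chr7:126625461-126625670 (- strand) for the ATF4 element, and Me1 at chr9:86695905-86696114 (- strand) and Abcc4 at chr14:118706210-118706419 (- strand) for the antioxidant response element.
Hspa1a: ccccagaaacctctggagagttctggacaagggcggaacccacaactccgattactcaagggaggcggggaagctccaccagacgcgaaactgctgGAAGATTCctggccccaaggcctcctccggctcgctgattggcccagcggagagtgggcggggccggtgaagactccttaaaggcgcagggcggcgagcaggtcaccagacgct
Hspb1: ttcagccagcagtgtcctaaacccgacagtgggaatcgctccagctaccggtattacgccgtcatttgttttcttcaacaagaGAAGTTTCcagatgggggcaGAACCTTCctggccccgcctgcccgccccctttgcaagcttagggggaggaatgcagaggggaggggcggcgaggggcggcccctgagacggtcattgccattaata
Fgf21: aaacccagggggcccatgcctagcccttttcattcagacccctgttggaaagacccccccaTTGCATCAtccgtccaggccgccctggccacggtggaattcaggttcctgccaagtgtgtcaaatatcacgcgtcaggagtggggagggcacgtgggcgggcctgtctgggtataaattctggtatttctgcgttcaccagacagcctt
Nupr1: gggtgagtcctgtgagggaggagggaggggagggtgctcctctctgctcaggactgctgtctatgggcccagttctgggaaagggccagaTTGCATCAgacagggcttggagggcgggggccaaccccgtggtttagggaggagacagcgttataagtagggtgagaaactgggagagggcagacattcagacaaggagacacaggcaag
Me1: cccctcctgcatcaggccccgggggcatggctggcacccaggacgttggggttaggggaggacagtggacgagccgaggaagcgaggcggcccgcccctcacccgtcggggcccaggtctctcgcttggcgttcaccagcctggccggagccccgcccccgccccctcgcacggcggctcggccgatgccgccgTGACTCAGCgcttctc
Abcc4: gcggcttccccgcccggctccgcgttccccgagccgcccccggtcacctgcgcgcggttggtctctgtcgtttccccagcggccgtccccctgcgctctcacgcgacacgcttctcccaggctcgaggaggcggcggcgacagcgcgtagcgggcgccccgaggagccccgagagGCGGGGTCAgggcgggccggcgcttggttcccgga
The match starts 104 bases before the start in Hspa1a, which fell, and 117 and 97 bases before it in Hspb1, which rose. In the same way the letters stand in both Fgf21 and Nupr1, and in both Me1 and Abcc4, whose changes had opposite signs.

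Genes of the unfolded protein and integrated stress response, which slow translation and enlarge the folding capacity of the endoplasmic reticulum, split: 13 of 25 rose and 8 fell (median log2 change 0.30), and 10 rose and 9 fell in the wild type alone. Fgf21, a hormone that stressed hepatocytes secrete, read 6526 to 11996 (median 9459) at 4 h and 198 to 698 (median 341) at 12 h. The log2 change was -4.65 ± 0.22 (adjusted p = 9.46e-13), with vehicle medians of 32.4 at 4 h and 99.2 at 12 h, so the CCl4 median of 12 h lay above both. The stress sensor Atf6 (-1.35 ± 0.10) and Herpud1, a member of the degradation complex (-1.44 ± 0.17), fell without overlap. Nupr1, a stress-induced chromatin protein, read 195 to 1266 (median 414) at 4 h and 1846 to 4266 (median 2767) at 12 h, a change of 2.65 ± 0.23. Sdf2l1, a folding helper of the reticulum, rose by 1.95 ± 0.21 after CCl4 and by 2.87 ± 0.29 in vehicle livers. In vehicle livers 13 genes of the list rose and 1 fell, against 9.27% and 8.51% of all genes tested there. The change after CCl4 differed from that in vehicle livers upward for 2 genes and downward for 13, against 15% and 17.7% of all genes.

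Serine, one-carbon and cystine genes, which supply glycine, folate-bound carbon and cysteine, were mostly higher: 9 of 13 rose and 3 fell (median log2 change 0.82), and 9 rose and 3 fell in the wild type alone. Including the left-out liver, 5 rose. Phgdh, the first enzyme of serine synthesis, read 13.3 to 49.4 (median 32.7) at 4 h and 295 to 1620 (median 928) at 12 h, a log2 change of 4.86 ± 0.30 (adjusted p = 3.9e-11). Wild-type vehicle medians were 9.60 at 4 h and 7.50 at 12 h, below the lowest CCl4 liver of 4 h. In vehicle livers 2 rose and 1 fell (median 0.19), and 4 changed more upward and 2 more downward after CCl4. Aldh1l2, a mitochondrial folate dehydrogenase, read 14.6 to 37.4 (median 24.3) at 4 h and 362 to 2045 (median 937) at 12 h, a change of 5.22 ± 0.27. Its mitochondrial partner Mthfd1l rose by 3.74 ± 0.19. Slc7a11 and Slc3a2, the 2 chains of the cystine importer, rose by 2.43 ± 0.22 and 0.82 ± 0.09. The cytosolic Shmt1 fell by 1.58 on the log2 scale, and Cth, which makes cysteine from cystathionine, by 1.36. Shmt2, the mitochondrial counterpart of Shmt1, was also called lower over both genotypes. It was not called in the wild type alone (-0.405, adjusted p = 0.088) or after quantile normalization (-0.196, adjusted p = 0.109). Pycr1, which makes proline in mitochondria, was not in the list and rose by 4.15 ± 0.31. The ATF4 element was in 1 of 10 promoters of the list (10%), against 2.31% of genes.

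Targets of NRF2, the regulator of antioxidant and detoxifying genes, were called in shares near those of all tested genes: 9 of 24 rose and 7 fell (median log2 change 0.11), and 11 rose and 6 fell in the wild type alone, and 5 rose and 7 fell with the left-out liver. In vehicle livers 0 rose and 5 fell (median -0.32), and 6 changed more upward and 3 more downward after CCl4. Hmox1, which degrades haem, read 15137 to 25668 (median 19093) at 4 h and 1304 to 4416 (median 2013) at 12 h, a log2 change of -3.16 ± 0.18 (adjusted p = 1.32e-11). The lowest value of 4 h was above the highest of 12 h, and vehicle medians were 1840 at 4 h and 1050 at 12 h. Me1, a source of NADPH that also serves lipogenesis, fell without overlap (-1.63 ± 0.12). Gsta1, a glutathione transferase, read 67.8 to 190 (median 117) at 4 h and 247 to 1204 (median 790) at 12 h, a change of 2.57 ± 0.26. In wild-type vehicle livers it fell (-2.58 ± 0.71), and the change in wild-type CCl4 livers differed from that by 5.38 ± 1.01 (adjusted p = 0.000481). Its change over both genotypes was 1.63 (adjusted p = 0.116) when the left-out liver was included. Abcc4, also counted in this list, is described above.

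Of the targets of p53, the DNA damage regulator, 4 of 22 rose and 9 fell (median log2 change -0.05), and 5 rose and 9 fell in the wild type alone. Mdm2, which limits p53, read 3622 to 5466 (median 4376) at 4 h and 1466 to 1916 (median 1565) at 12 h, a log2 change of -1.43 ± 0.08 (adjusted p = 1.11e-11). Plk3 fell by 3.24 and the death effectors Bax and Bbc3 rose by 1.60 ± 0.16 and 1.12 ± 0.15. Cdkn1a, the p21 brake on the cell cycle, read 4235 to 8319 (median 5983) at 4 h and 2389 to 4524 (median 3453) at 12 h, a change of -0.92 ± 0.11. In wild-type vehicle livers it rose from a median of 73.2 to 2841. The change in wild-type CCl4 livers differed from that rise by -5.58 ± 0.60 (adjusted p = 2.36e-06). The difference thus came with a vehicle level that was far below CCl4 livers at 4 h and near them at 12 h. Among metallothionein and zinc genes 1 of 8 rose and 4 fell (median log2 change -0.27), and 0 rose and 3 fell in the wild type alone. The zinc importer Slc39a14 fell without overlap (-0.75 ± 0.12), but after quantile normalization its change was -0.23 (adjusted p = 0.147), which is not a call. The metallothioneins Mt1 and Mt2 changed by -0.14 ± 0.45 and 0.06 ± 0.45 (adjusted p = 0.795 and 0.915).

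Ribosome biogenesis genes, which make and assemble ribosomal RNA and proteins, were more often higher than lower: 16 of 28 rose and 7 fell (median log2 change 0.35), and 13 rose and 4 fell in the wild type alone. Ncl, which encodes nucleolin, read 5996 to 8736 (median 7112) at 4 h and 13675 to 34984 (median 26148) at 12 h, a log2 change of 1.79 ± 0.14 (adjusted p = 1.3e-09). Its medians in vehicle livers were 6023 at 4 h and 5155 at 12 h. Npm1, the nucleolar chaperone, read 4000 to 7277 (median 5173) at 4 h and 8137 to 21997 (median 15848) at 12 h, a change of 1.48 ± 0.16. Dkc1, Noc2l and Rrp9 rose by 1.15 to 1.48 without overlap, and Rrs1 fell (-0.85 ± 0.09). In vehicle livers 1 rose and 1 fell (median -0.11), and 11 changed more upward and 2 more downward after CCl4. When the left-out liver was included, 11 rose and 7 fell. Proteasome subunits moved by small amounts, such as Psmd12 at -0.70 ± 0.08 and Psmb5 at 0.78 ± 0.12: 7 of 31 rose and 9 fell (median log2 change -0.06), and 5 rose and 4 fell in the wild type alone, but after quantile normalization 21 rose and 1 fell, against 33.6% and 32% of all genes. Their direction therefore rests on the scaling.

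Every tested gene of cholesterol synthesis and uptake fell: 0 of 24 rose and 24 fell (median log2 change -1.66), and 0 rose and 23 fell in the wild type alone. Including the left-out liver, all 24 fell too. Nsdhl and Cyp51 remove methyl groups from the sterol rings. Nsdhl read 2166 to 3210 (median 3020) at 4 h and 266 to 565 (median 305) at 12 h, a log2 change of -3.04 ± 0.13 (adjusted p = 4e-13). Cyp51 read 6251 to 10341 at 4 h and 1177 to 2059 at 12 h, a change of -2.54 ± 0.11. Idi1, an early enzyme of the isoprenoid steps, read 1189 to 3302 (median 1829) at 4 h and 38.0 to 192 (median 90.0) at 12 h, a change of -4.44 ± 0.26. Stard4, a carrier of cholesterol between membranes, read 3722 to 13620 (median 10220) at 4 h and 209 to 997 (median 411) at 12 h, a change of -4.33 ± 0.24. The squalene maker Fdft1 fell by 2.28. For 19 of the list all livers of 12 h lay below all livers of 4 h. In vehicle livers 3 rose and 0 fell, and 20 changed more downward after CCl4. The sterol regulatory element, spelled TCACNCCAC, was in 1 of 16 promoters of the list, and in 1.15% of genes and 1.24% of all promoters.

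Lipogenesis genes, which turn carbohydrate into fatty acids, fell for the most part: 1 of 21 rose and 18 fell (median log2 change -1.96), and 1 rose and 18 fell in the wild type alone. Part of this list also moved without CCl4: in vehicle livers 1 rose and 7 fell (median -0.71), and 0 changed more upward and 9 more downward after CCl4. Thrsp, a nuclear protein of lipogenic tissues, read 6550 to 18522 (median 11477) at 4 h and 209 to 830 (median 357) at 12 h, a log2 change of -4.77 ± 0.24 (adjusted p = 3.27e-12). It fell in wild-type vehicle livers too (-2.70 ± 0.49). The change in wild-type CCl4 livers differed from that by -1.47 ± 0.69, with an adjusted p of 0.108. Acacb and Elovl5 fell by 1.92 each without overlap. The acyltransferase Agpat2 was the 1 gene of the list that rose (0.66 ± 0.13). The sterol regulatory element was in 1 of 16 promoters of this list too (6.25%). Of the genes of PPARalpha and fatty acid oxidation, 2 of 24 rose and 19 fell (median log2 change -0.85), and 2 rose and 20 fell in the wild type alone. Cpt1a, the gate of fatty acids into mitochondria, read 8941 to 14505 (median 11761) at 4 h and 3021 to 6607 (median 3598) at 12 h, a change of -1.47 ± 0.14. Fabp1 and Hadh fell by 1.71 and 1.36, whereas the thioesterase Acot2 and the lipid droplet coat Plin2 rose by 1.88 ± 0.20 and 0.73 ± 0.13.

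Detoxifying cytochromes P450 fell without exception among the called genes: 0 of 33 rose and 28 fell (median log2 change -1.48), and 0 rose and 25 fell in the wild type alone. Cyp2e1, which activates CCl4, read 84092 to 161575 (median 113069) at 4 h and 22467 to 46051 (median 35140) at 12 h. The log2 change was -1.75 ± 0.16 (adjusted p = 1.03e-08), and its vehicle medians were 228954 at 4 h and 175500 at 12 h, above both times. Cyp2c54, Cyp2c38, Cyp2c50 and Cyp2c37 fell by 2.08 to 2.58 without overlap, and reads may be shared within this family. Cyp3a41a, Cyp3a41b and Cyp3a16 are near copies of each other, and their changes after CCl4 minus those in vehicle livers were -7.03 to -5.52 on the log2 scale. Of the whole list 3 rose and 5 fell (median -0.26) in vehicle livers, and 3 changed more upward and 15 more downward after CCl4. The difference for Cyp3a41a had an adjusted p of 0.058 when all 16 groups shared 1 estimate of the spread. Genes for nuclear receptors and other hepatocyte transcription factors were mostly lower as well: 3 of 24 rose and 17 fell (median log2 change -0.62), and 3 rose and 14 fell in the wild type alone. Hnf4a, the master regulator of hepatocyte identity, read 21514 to 38852 (median 28728) at 4 h and 7600 to 15190 (median 9431) at 12 h, a change of -1.51 ± 0.14. Ahr, Nr1h4, Cebpa and Nr1i2 fell by 1.07 to 1.76.

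Most bile acid genes fell, and the exporter Abcc4 was the 1 that rose: 1 of 21 rose and 18 fell (median log2 change -1.46), and 1 rose and 18 fell in the wild type alone. Slco1b2, an importer of bile acids and drugs from blood, read 21378 to 47370 (median 27537) at 4 h and 1750 to 11830 (median 4132) at 12 h, a log2 change of -2.76 ± 0.24. The main bile acid importer, Slc10a1, read 12461 to 20705 (median 14761) at 4 h and 2167 to 7457 (median 3830) at 12 h, a change of -1.91 ± 0.18. The canalicular phospholipid exporter Abcb4 fell by 1.54 and the basolateral exporter Abcc3 by 1.10. Of the urea cycle and amino acid genes, 2 of 22 rose and 19 fell (median log2 change -1.16), and 1 rose and 19 fell in the wild type alone. Oat, an ornithine enzyme of the pericentral zone, read 5865 to 21330 (median 12574) at 4 h and 1333 to 3968 (median 1653) at 12 h, a change of -2.72 ± 0.22 (adjusted p = 2.03e-09). Tdo2, which opens tryptophan breakdown, fell by 2.76. In vehicle livers 2 rose and 3 fell (median -0.38) of the bile acid list and 1 rose and 6 fell (median -0.47) of the urea and amino acid list. More downward changes after CCl4 numbered 12 and 8, and more upward ones 1 and 0. Of the gluconeogenesis and glycolysis genes, 4 of 26 rose and 14 fell (median log2 change -0.36), and 1 rose and 13 fell in the wild type alone. Pfkfb3, Slc2a2 and Pklr fell by 1.96 to 2.43, and Pkm, the pyruvate kinase of proliferating and non-hepatocyte cells, rose (0.89 ± 0.15). Respiratory chain subunits fell by less: 1 of 31 rose and 23 fell (median log2 change -0.41), and 0 rose and 15 fell in the wild type alone. After quantile normalization 4 of them rose and 6 fell. In vehicle livers 0 of these subunits rose and 1 fell (median -0.25). After CCl4 0 changed more upward and 3 more downward, against 15% and 17.7% of all genes.

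Plasma proteins of the liver did not move as 1 group. Complement and coagulation genes fell: 0 of 27 rose and 25 fell (median log2 change -0.84), and 0 rose and 26 fell in the wild type alone. C1s1 (-1.19 ± 0.12), F11 (-1.01 ± 0.12) and Proc (-0.86 ± 0.11), a complement protease, a clotting factor and an anticoagulant, fell without overlap. In vehicle livers 4 of the list rose and 0 fell, and 24 changed more downward after CCl4. Among acute phase genes, whose secreted products rise in inflammation, 7 of 26 rose and 6 fell (median log2 change 0.10), and 5 rose and 4 fell in the wild type alone, and with the left-out liver 6 rose and 3 fell. After quantile normalization 11 rose and 1 fell. Orm2, an acid glycoprotein, read 2025 to 5542 (median 2557) at 4 h and 2353 to 18836 (median 14912) at 12 h, a log2 change of 2.04 ± 0.30. The times overlapped, and the lowest value of 12 h, 2353, was under the median of 4 h. In vehicle livers 11 genes of the list rose and 0 fell, with a median log2 change of 1.24, and 9 changed more downward after CCl4. Of the growth hormone and IGF genes, 0 of 13 rose and 11 fell (median log2 change -1.01), and 0 rose and 10 fell in the wild type alone. The receptor Ghr read 7852 to 10217 (median 8614) at 4 h and 1816 to 6117 (median 2463) at 12 h, a change of -1.59 ± 0.18. Its signal carrier Stat5b and the feedback genes Cish, Socs2 and Socs3 fell by 1.41 to 2.09, and none overlapped between the times.

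How far these changes also occurred without CCl4 was read from the wild-type vehicle livers, which had received oil. There, 1318 of 14219 tested genes were higher at 12 h (9.27%) and 1210 were lower (8.51%). In the wild-type CCl4 livers, taken as group means in the fit of all 19, 3647 genes rose (26.1%) and 4261 fell (30.5%). Of these rises 671 were also called rises in vehicle livers, which is 18.4% of the CCl4 rises and 51.1% of the vehicle rises. Falls were shared by 698 genes, 16.4% of the CCl4 falls and 58.2% of the vehicle falls. Opposite calls were made for 106 genes that rose after CCl4 and 161 that fell. Tested directly, the change differed between CCl4 and vehicle for 4646 genes, 2134 upward (15%) and 2512 downward (17.7%). Of the genes that rose after CCl4, 1830 (50.2%) changed more upward than in vehicle livers, and of those that fell 2139 (50.2%) changed more downward.

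Core clock genes moved strongly with time in vehicle livers and differently after CCl4. In vehicle livers 5 of 20 rose and 12 fell, whereas after CCl4 4 of 20 rose and 9 fell (median log2 change -0.32), and 4 rose and 6 fell in the wild type alone. The change differed for 9 genes upward and 4 downward. Dbp, a clock output factor, read 1959, 5117, 5850, 4335, 6641 in the 5 wild-type vehicle livers of 4 h and 28.3, 53.8, 42.5, 53.4, 14.4 in those of 12 h. After CCl4 it read 110, 207, 130, 63.3, 201 at 4 h and 53.2, 24.7, 124, 145, 63.5 at 12 h. The vehicle livers of 4 h were thus the 1 group with high Dbp, and the changes differed by 6.03 ± 0.64 (adjusted p = 2.17e-06). Ciart, a repressor within the clock, had vehicle medians of 605 at 4 h and 14.1 at 12 h and read 31.6 to 241 (median 105) at 4 h and 139 to 459 (median 238) at 12 h after CCl4. The difference of the changes in the wild type was 6.82 ± 0.76. Its rise over both genotypes, 1.36 ± 0.30, was 0.92 (adjusted p = 0.114) with the left-out liver. Npas2, a positive arm of the clock, rose from a vehicle median of 2.40 to 262, and in wild-type CCl4 livers changed by 1.45 ± 0.51, a difference of -4.85 ± 0.64. The repressor Nr1d1 read 1397 to 3668 (median 2449) at 4 h and 249 to 1074 (median 353) at 12 h, and its change in wild-type livers, -2.08 ± 0.30, was close to that of vehicle livers, -2.15 ± 0.37 (difference 0.07 ± 0.52, adjusted p = 0.934). Cry1 rose by 2.13 ± 0.25 and Bhlhe40 fell by 1.25 after CCl4. The E-box, spelled CACGTG, was in 5 of 17 clock promoters (29.4%), against 10.1% of genes and 7.15% of all promoters. The D-box, spelled TTANGTAA, was in 1 of 17 (5.88%), against 1.54% of genes and 2.32% of all promoters.

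**Figure D4:**
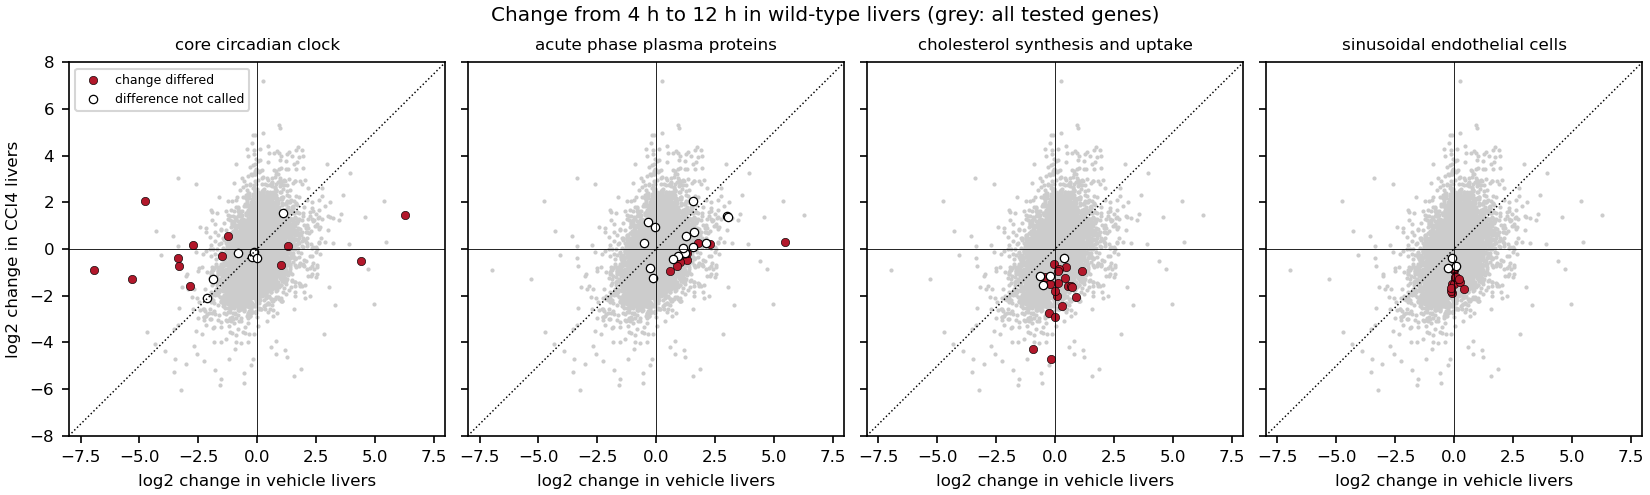
Log2 change from 4 h to 12 h in wild-type CCl4 livers (vertical) against wild-type vehicle livers (horizontal), 5 livers per group, with all tested genes in grey and 1 gene list per panel; red points are genes whose changes differed at an adjusted p under 0.05. Clock genes spread along the horizontal axis, and the 20 red genes of cholesterol synthesis and 15 of the sinusoidal endothelium lie below the dotted line of equal change.

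The 8 largest differences from vehicle below included Sult3a2 and Sult3a1, sulfotransferases, and the phosphate importer Slc34a2. Sult3a1 rose in vehicle livers, with medians of 1134 at 4 h and 6545 at 12 h, and fell after CCl4 from 726 to 3298 (median 1394) to 17.0 to 227 (median 133). The changes in the wild type differed by -6.48 ± 0.68 (adjusted p = 1.81e-06). For Sult3a2 and Slc34a2 the differences were -7.31 ± 1.04 and -5.73 ± 0.90. In the other direction Krt23, a keratin, fell in vehicle livers (-4.29 ± 0.40) and changed by 0.77 ± 0.59 in wild-type CCl4 livers, a difference of 5.06 ± 0.56. Cpe, Phgdh and Abcc4 had differences of 4.95 to 6.93. The vehicle changes of these 3 genes were -0.18 to 0.25.

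Of the chemokine and cytokine genes, 11 of 21 rose and 2 fell (median log2 change 0.71), and 8 rose and 3 fell in the wild type alone. In vehicle livers 4 rose and 2 fell (median -0.19), and 3 changed more upward and 2 more downward after CCl4. Ccl5, which draws T cells and monocytes, read 36.2 to 101 (median 57.0) at 4 h and 149 to 486 (median 348) at 12 h, a log2 change of 2.43 ± 0.21 (adjusted p = 3.37e-09). Cxcl9 and Ccl7 rose by 1.80 ± 0.28 and 1.93 ± 0.32 with overlap between the times, and Il18 fell (-1.34 ± 0.19). Cxcl10 rose by 1.28 ± 0.21, and with the left-out liver by 0.77 (adjusted p = 0.197), which is not a call. Of the interferon-stimulated genes, 6 of 26 rose and 6 fell (median log2 change -0.10), and 6 rose and 4 fell in the wild type alone. In vehicle livers 0 rose and 5 fell (median -0.51), and 9 changed more upward and 0 more downward after CCl4. Oasl1, of this list, read 392 to 1109 (median 587) at 4 h and 1341 to 3495 (median 1935) at 12 h, a change of 1.62 ± 0.19. Of the NF-kappaB genes, 5 of 16 rose and 4 fell (median log2 change 0.02), and 3 rose and 5 fell in the wild type alone. In vehicle livers 5 rose and 0 fell (median 0.23), and 1 changed more upward and 5 more downward after CCl4. Relb and Nfkb2, of the noncanonical arm, rose after CCl4 by 1.48 ± 0.14 and 1.22 ± 0.16 without overlap. Nfkb1 and Bcl3 fell by 1.11 ± 0.14 and 0.91 ± 0.11.

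All 18 tested markers of sinusoidal endothelial cells, which line the sinusoids and clear waste from blood, fell (median log2 change -1.16), and 17 fell in the wild type alone. Stab2, a scavenger receptor of these cells, read 1366 to 2512 (median 1762) at 4 h and 371 to 1158 (median 737) at 12 h, a change of -1.41 ± 0.17 (adjusted p = 5.61e-07). Flt4 and Ptprb fell by 1.41 and 1.43. The summed markers were 22542 to 34307 normalized counts in wild-type livers of 4 h and 7561 to 16249 in those of 12 h, without overlap. The knockout sums were 23727 to 28931 and 11096 to 17211. In vehicle livers 0 of these markers rose and 0 fell, and 15 changed more downward after CCl4. Of the other endothelial markers, 2 of 15 rose and 8 fell (median log2 change -0.66), and 0 rose and 8 fell in the wild type alone. Wnt2, which endothelium sends to pericentral hepatocytes, read 161 to 242 (median 190) at 4 h and 44.2 to 107 (median 63.5) at 12 h, a change of -1.46 ± 0.16.

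Kupffer cells, the resident macrophages, had lower levels of all called markers but 1 in the whole liver: 1 of 16 rose and 15 fell (median log2 change -1.23), and 1 rose and 13 fell in the wild type alone. Cd163, a haemoglobin scavenger receptor, read 460 to 1492 (median 831) at 4 h and 54.8 to 339 (median 198) at 12 h, a log2 change of -2.16 ± 0.25 (adjusted p = 2.24e-07). The Kupffer lectin Clec4f read 2716 to 5675 (median 4058) at 4 h and 476 to 3765 (median 1106) at 12 h, a change of -1.63 ± 0.26, and the times overlapped. Marco, another scavenger receptor, rose from 367 to 1296 (median 704) to 967 to 4120 (median 1946). Summed Kupffer markers were 23245 to 36212 in wild-type livers of 4 h and 9230 to 21698 in those of 12 h. The knockout sums, 32207 to 42634 and 12734 to 35283, overlapped. In vehicle livers 0 rose and 0 fell (median -0.02), and 0 changed more upward and 8 more downward after CCl4. Among markers of monocytes and infiltrating macrophages 9 of 18 rose and 2 fell (median log2 change 0.65), and 7 rose and 3 fell in the wild type alone. Some rose without CCl4 as well: in vehicle livers 5 rose and 0 fell (median 0.58), and 2 changed more upward and 2 more downward after CCl4. Their sums were 89426 to 119122 and 55119 to 90394 in wild-type CCl4 livers of 4 h and 12 h and 73090 to 108942 and 53530 to 117734 in knockout livers. The sums thus overlapped, with the wild type lower at 12 h in its lowest and highest liver. The 2 genes that fell, Fn1 and F10, are also counted in the matrix list and the coagulation list. The matrix list, which also holds Fn1, had similar wild-type sums of 95598 to 132699 at 4 h and 54596 to 91785 at 12 h. The sums therefore do not stand for macrophages alone, and the part of Fn1 in them was not tested. Gpnmb, a glycoprotein of lipid-laden macrophages, read 1.30 to 9.50 (median 3.80) at 4 h and 40.3 to 123 (median 70.5) at 12 h, a change of 3.85 ± 0.30. Cd63, a lysosomal tetraspanin, and Lgals3, which encodes galectin-3, rose by 3.73 ± 0.26 and 2.84 ± 0.22, and neither is made by macrophages alone. Of the T and NK cell markers 5 of 18 rose and 0 fell, a share of rises near the 30.6% of all tested genes. In vehicle livers 1 rose and 0 fell (median -0.10), and 0 changed more upward and 0 more downward after CCl4. Lck, a T cell kinase, rose by 1.15 ± 0.20 after CCl4. Of 9 tested neutrophil markers 2 rose, S100a8 and S100a9, and 1 fell, Hcar2; in the wild type alone the 2 rises were not called (adjusted p = 0.224 and 0.102).

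Quiescent stellate cell markers, of the vitamin A-storing cells of the sinusoid, were lower in 10 of 17 cases and higher in 1. Reln and Hgf, a growth factor for hepatocytes, fell by 1.15 and 1.51. Of the activated stellate and myofibroblast markers 4 of 15 rose and 6 fell, with the protease inhibitor Timp1 and the matrix cytokine Spp1 at 1.64 ± 0.33 and 1.29 ± 0.32 and the receptor Pdgfra at -0.95 ± 0.14. Markers of cells that a liver piece can carry from its surroundings also moved: both exocrine pancreas genes, Cela1 and Cela2a, fell by 1.90 and 2.74, with sums of 246 to 546 in wild-type livers of 4 h and 69 to 311 in those of 12 h. Of the 5 tested mesothelium and adipose genes 1 rose and 2 fell, and Car3, which hepatocytes also make, led the falls (-2.68 ± 0.30). Called rises and falls were 3 and 1 of 13 of B and plasma cell, 3 and 2 of 10 of dendritic cell, 3 and 3 of 13 of cholangiocyte and 0 and 1 of 10 of erythroid and platelet markers. The part of these cell types in the other lists was not tested.

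**Figure D5:**
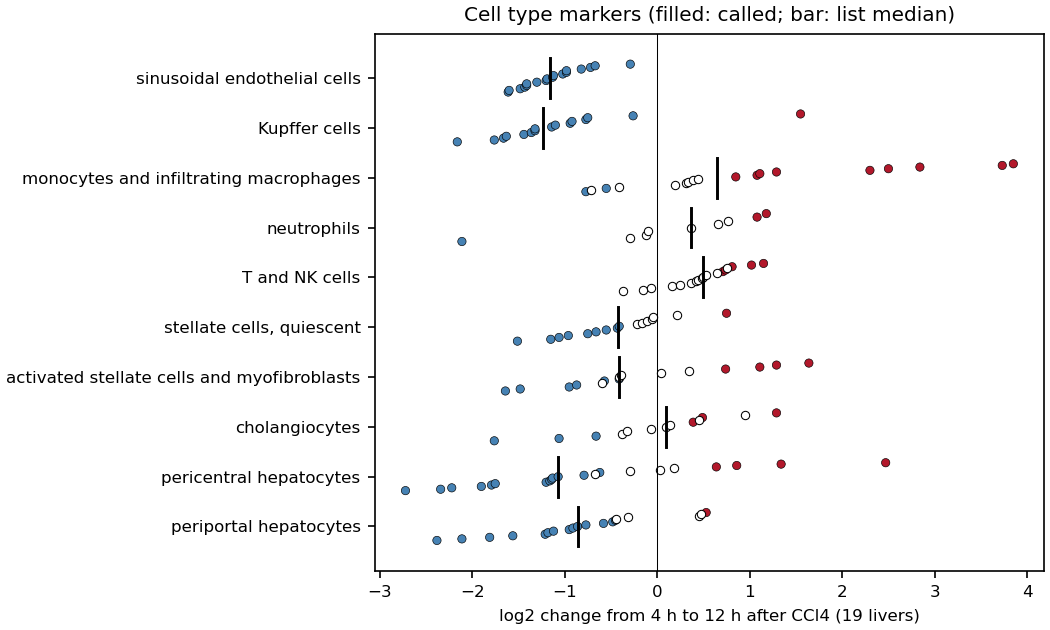
Log2 change from 4 h to 12 h after CCl4 (horizontal axis, 19 livers) of every tested marker gene of 10 cell types or zones, 1 point per gene, filled where called higher (red) or lower (blue), with a bar at the median of the list. All sinusoidal endothelial markers lie left of 0, as do all Kupffer cell markers other than Marco, and the macrophage markers reach 3.85.

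Markers of both zones of the lobule were mostly lower at 12 h, and some periportal ones also fell in vehicle livers. Of the pericentral hepatocyte markers, the cells that CCl4 strikes, 4 of 21 rose and 13 fell (median log2 change -1.07), and 2 rose and 11 fell in the wild type alone. Glul, the glutamine synthetase of the innermost cells, read 11927 to 25881 (median 21108) at 4 h and 2230 to 5543 (median 4692) at 12 h, a log2 change of -2.34 ± 0.20 (adjusted p = 3.31e-09). Its vehicle medians were 34487 at 4 h and 48821 at 12 h, and it rose there (0.81 ± 0.23). Slc1a4, a neutral amino acid carrier, and Tbx3, a target of Wnt signals, rose by 2.47 ± 0.15 and 1.34 ± 0.17. Of the periportal markers, 1 of 19 rose and 14 fell (median log2 change -0.86), and 0 rose and 11 fell in the wild type alone. Cps1, which starts the urea cycle, read 113219 to 165709 (median 142312) at 4 h and 20868 to 132947 (median 46112) at 12 h, a change of -1.56 ± 0.29, and the times overlapped. After quantile normalization 9 periportal and 13 pericentral markers fell. In vehicle livers 3 pericentral markers rose and 2 fell (median -0.13), and 3 changed more upward and 8 more downward after CCl4. Of the periportal markers 2 rose and 5 fell in vehicle livers (median -0.34). After CCl4 0 of these changed more upward and 4 of 19 more downward, against 15% and 17.7% of all genes.

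Most mitosis genes fell over both genotypes, though a smaller part was called in the knockout. Genes of G1 and DNA replication were called higher in shares near that of all tested genes. Of the G1 genes, 6 of 19 rose and 4 fell (median log2 change 0.07), and 5 rose and 3 fell in the wild type alone. Cdk4, the kinase of the G1 phase, read 674 to 875 (median 781) at 4 h and 1334 to 2428 (median 1772) at 12 h, a log2 change of 1.19 ± 0.08 (adjusted p = 2.62e-10). Cdkn1c, the p57 inhibitor, read 46.4 to 129 (median 86.2) at 4 h and 231 to 1445 (median 753) at 12 h, a change of 3.15 ± 0.31. Of the DNA replication genes, 8 of 23 rose and 4 fell (median log2 change 0.12), and 8 rose and 2 fell in the wild type alone. Mcm2, a subunit of the replicative helicase, read 46.7 to 103 (median 68.1) at 4 h and 156 to 220 (median 189) at 12 h, a change of 1.43 ± 0.14. The licensing factor Cdt1 rose by 1.68 ± 0.24, whereas Cdc45, which activates the helicase, read 69.1 to 139 (median 113) at 4 h and 20.3 to 51.6 (median 30.5) at 12 h, a change of -1.77 ± 0.16. In vehicle livers 0 of the list rose and 9 fell, and 10 changed more upward after CCl4 and 1 more downward. Of the mitosis genes, 2 of 24 rose and 18 fell (median log2 change -0.95), and 2 rose and 15 fell in the wild type alone. In the knockout 1 rose and 6 fell (median -0.94), against 22.7% and 26.2% of all genes. For 1 of the list all livers of 12 h lay below all livers of 4 h. Values were low, with wild-type sums of 797 to 1309 normalized counts at 4 h and 522 to 886 at 12 h. In vehicle livers 1 rose and 0 fell (median 0.58), and 0 changed more upward and 14 more downward after CCl4. Ect2, needed for cell cleavage, read 60.1 to 218 (median 69.6) at 4 h and 9.90 to 57.2 (median 21.4) at 12 h, a change of -1.81 ± 0.25. The mitotic cyclins Ccnb1 and Ccnb2 fell by 1.94 and 1.69 from medians of 25.2 and 37.1 normalized counts, and Prc1, a spindle midzone protein, rose (1.44 ± 0.30).

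Among growth signals of the EGF family and HGF 3 of 20 rose and 10 fell (median log2 change -0.33), and 3 rose and 10 fell in the wild type alone. The ligand Tgfa read 446 to 702 (median 563) at 4 h and 1232 to 2870 (median 2143) at 12 h, a log2 change of 1.81 ± 0.14 (adjusted p = 6.99e-10). Its receptor Egfr went the other way and read 22026 to 48751 (median 36416) at 4 h and 9544 to 13826 (median 11480) at 12 h, a change of -1.52 ± 0.15. The feedback genes Errfi1 and Dusp6 fell by 1.97 and 3.02, and the phosphatase Dusp4 rose (2.05 ± 0.20, and 1.39 (adjusted p = 0.0581) with the left-out liver). Of the TGF-beta and BMP genes, 5 of 24 rose and 13 fell (median log2 change -0.57), and 4 rose and 13 fell in the wild type alone. The ligands Tgfb2, Bmp8b and Bmp6 rose by 3.09 ± 0.32, 2.56 ± 0.22 and 1.50 ± 0.12 without overlap, and the response genes Id2 and Id3 fell by 1.15 and 1.32. Of the matrix genes, 5 of 35 rose and 15 fell (median log2 change -0.41), and 4 rose and 13 fell in the wild type alone. In vehicle livers 6 rose and 1 fell (median 0.32), and 1 changed more upward and 12 more downward after CCl4. The membrane protease Mmp14 rose after CCl4 (1.00 ± 0.10) and in vehicle livers (1.44 ± 0.15), and the collagens Col14a1 and Col12a1 fell by 1.50 and 1.90.

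Cytoskeleton, keratin and annexin genes were more often higher than lower after CCl4 and in vehicle livers: 13 of 27 rose and 5 fell (median log2 change 0.43), and 10 rose and 4 fell in the wild type alone. In vehicle livers 8 rose and 1 fell (median 0.50), and 6 changed more upward and 3 more downward after CCl4, with a median difference of -0.04. The annexins bind membrane phospholipids in the presence of calcium. Anxa5 read 1681 to 2063 (median 1919) at 4 h and 5992 to 11967 (median 9618) at 12 h, a log2 change of 2.29 ± 0.09 (adjusted p = 3.61e-14). Anxa2 read 1186 to 2796 (median 1503) at 4 h and 6271 to 23104 (median 14672) at 12 h, a change of 3.02 ± 0.19 (adjusted p = 5.58e-11), and neither gene overlapped between the times. Sprr1a, a cornified envelope protein of squamous epithelia, read 1655 to 9564 (median 6058) at 4 h and 30657 to 94113 (median 48226) at 12 h, a change of 3.32 ± 0.29. It was 3.48 (adjusted p = 2.41e-05) in the wild type alone and 1.72 (adjusted p = 0.316) with the left-out liver, and it was at or under 412 in vehicle livers of 4 h. S100a11 and Tubb2b rose by 2.55 ± 0.26 and 2.89 ± 0.33, and Actg1 and Tubb2a fell by 1.16 and 0.91. Of the hypoxia and iron genes, 2 of 19 rose and 10 fell (median log2 change -0.61), and 2 rose and 10 fell in the wild type alone. In vehicle livers 1 rose and 5 fell (median -0.22), and 3 changed more upward and 9 more downward after CCl4. Bnip3, of mitochondrial clearance, read 3403 to 9628 (median 5284) at 4 h and 450 to 1219 (median 963) at 12 h, a change of -2.64 ± 0.20. Vegfa fell by 1.28 and the iron store gene Fth1 rose (0.93 ± 0.19).

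Both genotypes took the same course for most genes. Knockout livers, 5 of 4 h and 4 of 12 h, had 3172 genes higher at 12 h (22.7%) and 3662 lower (26.2%). Of the wild-type rises 2598 were also knockout rises, which is 71.2% of the wild-type and 81.9% of the knockout calls. For falls the number was 3051, or 71.6% and 83.3%. Opposite calls were made for 4 wild-type rises and 14 wild-type falls. The test of the difference itself called 14 genes, 0.1% of those tested, of which 9 changed more upward and 5 more downward in the knockout, and 1398 genes had an unadjusted p under 0.05. Mcm6 (chr1:128331590-128359664), a helicase subunit, read 38.5, 60.8, 21.8, 58.8, 38.5 in wild-type livers of 4 h and 189, 352, 339, 374, 327 in those of 12 h, and 446, 727, 550, 511, 541 in knockout livers of 4 h and 263, 420, 634, 457 in those of 12 h. The low group was the wild type of 4 h, and the changes differed by -3.25 ± 0.38 (adjusted p = 0.000345). Zfp970, a zinc finger gene, read 1154, 680, 799, 1050, 637 in wild-type livers of 4 h and 146, 202, 124, 164, 186 in those of 12 h, and 436, 665, 539, 364, 422 in knockout livers of 4 h and 528, 424, 420, 222 in those of 12 h. It fell in the wild type (-2.37 ± 0.22) and changed by -0.32 ± 0.24 in the knockout, a difference of 2.05 ± 0.33 (adjusted p = 0.00946). For the predicted gene Gm15772 the difference was 6.16 ± 0.61. Foxo3, a stress-linked transcription factor, fell in the knockout (-1.41 ± 0.14) and changed by -0.23 ± 0.13 in the wild type, a difference of -1.18 ± 0.20 (adjusted p = 0.0138). Including the left-out liver, that difference was -1.02 (adjusted p = 0.136). The citrate importer Slc13a5 differed by -2.38 ± 0.36, and by -1.57 (adjusted p = 0.514) with the left-out liver. The count itself depended on 1 liver: without wild-type CCl4 12 h replicate 2, 36 genes changed more upward and 26 more downward in the knockout. Adamts12 changed by -0.02 ± 0.34 over both genotypes (adjusted p = 0.953).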

How the data were processed

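Stranded mRNA libraries of 80 mouse livers were sequenced on a NovaSeq 6000, per the labels' protocols. The submitters' processing notes name STAR, HTSeq, DESeq2 and GRCm38, and give no versions. The authors deposited 1 normalized signal per gene and liver. In each liver these values came in whole steps (tolerance 0.01), as read counts scaled by 1 factor would, and the steps gave totals of 18.6 to 64.5 M reads, used for depth only. GENCODE M21 placed 14550 of the 14560 genes, and 2 had no symbol.

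The test was limma 3.58.1 (R 4.3.3, trended variance) on log2(value + 1), for genes reaching 10 normalized counts in 5 or more livers of a fit, which left out 578. Two-sided p-values were Benjamini-Hochberg adjusted across every tested gene, with calls under 0.05. Changes are log2 ± SE, and the pseudocount understates those of low genes. The fits were 12 h against 4 h with genotype as covariate, the same per genotype and their difference, and in wild-type livers the vehicle change and its difference from that after CCl4.

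The members, the 49 gene lists (972 genes, 922 in the table) and the tests were chosen with earlier results of these data known. A rule set the genes that could be named: the 15 largest rises and falls over both genotypes with a mean of 100 or more at 1 time and no overlap, the 8 largest differences from vehicle each way, 5 each way for the genotype difference, and from every list the 5 members of smallest adjusted p and up to 2 called the other way. Not all of them are described; Mt1 and Mt2 were added after their values were seen. Alternatives were other pseudocounts and filters, quantile normalization, all 16 groups in 1 fit, a replicate block, leaving out each liver, and the sets of livers given in the text. The fits were tested on simulated data. Promoter sequences are from RefSeq (GRCm38.p6).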

Additional observations from a re-analysis of the deposited data

Results flagged for a closer look

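Of 120 groups of 4 or 5 livers tested for the 30 genes with the largest rises and falls, 17 livers stood apart from their group, and chance alone flags about 1 in 20 groups. Wild-type CCl4 12 h replicate 2 accounted for Flnc (678 normalized counts), Hectd2os (226), Stard4 (997), Upp2 (1195), Asic5 (29.1), Abca8a (1061) and Aox3 (5164). Knockout CCl4 12 h replicate 1 accounted for Fads3 (444), Hectd2os (221), Ackr2 (319), Upp2 (1126), Abca8a (935) and Aox3 (2345). These are the 2 livers of 12 h that lay nearest to those of 4 h, and in all but Flnc of these flags their value was on the side of the livers of 4 h. Single livers also stood apart for Cpe (139, knockout 4 h replicate 2), Rrad (58.9, wild type 4 h replicate 2), Thrsp (14478, wild type 4 h replicate 3) and Rgs16 (393, knockout 12 h replicate 4).

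The change from 4 h to 12 h differed between the genotypes for 14 genes. As log2 differences, knockout minus wild type, the named ones were Gm15772 at 6.16, Camk2b at 2.24, Zfp970 at 2.05, Abcc5 at 1.28, Zfc3h1 at 1.17, Foxo3 at -1.18, Dnmbp at -1.21, Slc13a5 at -2.38 and Mcm6 at -3.25. Gm15772, Zfp970 and Mcm6 kept their call under every alternative run. With the replicate block Abcc5 (adjusted p = 0.0522) and Zfc3h1 (0.0811) lost it, and with all 16 groups in the fit these (0.103 and 0.0835), Camk2b (0.172) and Slc13a5 (0.394) did. Camk2b also lost it without knockout CCl4 12 h replicate 2 (0.0518). Dnmbp lost it in 6 of the fits that leave out 1 liver (0.0503 to 0.0613), and Foxo3 (0.136) and Slc13a5 (0.514) with the left-out liver. Between CCl4 and vehicle livers of the wild type the change differed for 4646 genes. Sprr1a read 55860 in knockout vehicle 12 h replicate 1, against 1.7 to 1908 in wild-type vehicle livers of 12 h. That knockout liver entered only the principal components, the positions of the livers and the alternatives with both genotypes or all 16 groups.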

How the results depend on the processing

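Counts of called genes kept within 1.5 times of the reported ones for the comparison of both genotypes and for each genotype under every alternative run. Leaving out each liver in turn gave 4104 to 4368 higher and 4757 to 5033 lower genes over both genotypes, 3228 to 3808 and 3868 to 4429 in the wild type, 2695 to 3467 and 3168 to 3939 in the knockout, 977 to 1501 and 834 to 1479 in wild-type vehicle livers, and 1802 to 2403 and 2170 to 3039 for CCl4 against vehicle. The genotype difference was the unsteady result, with 6 to 36 genes higher and 4 to 26 lower in the knockout; without wild-type CCl4 4 h replicate 5, 14 were higher, and without wild-type CCl4 12 h replicate 2, 36 and 26. It gave 16 higher with a pseudocount of 8, 9 lower with all 16 groups in the fit, 25 higher and 16 lower without mice numbered below 7000, 3 lower with the left-out liver, and 33 and 22 without the 2 livers of 12 h that stood nearest to 4 h, an alternative chosen after seeing the data. Vehicle livers of both genotypes gave 2278 higher and 2185 lower, and without knockout vehicle 12 h replicate 1 (added after seeing the data) 2354 and 2221. The cause was not tested. Same-numbered livers did not deviate together (14 correlations of -0.24 to 0.36, 4 over 0.1), and the replicate block gave 4199 higher and 4872 lower over both genotypes and 6 and 5 for the genotype difference. Of 9493 values of single named genes under the alternatives 9307 kept their call, 185 lost it and 1, Cflar, changed sign (-0.29, and 0.045 after quantile normalization). With the left-out liver 20 named genes lost their call, of which 12 were called in the wild type alone. Tests on recovered read counts were not run, since all libraries share 1 column of the table.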
